A study of Mus musculus with 16 samples.

Results

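The metallothioneins Mt1 and Mt2, the zinc-sensing transcription factor Mtf1 and the zinc transporters Slc30a1 and Slc39a14 were followed through 4 tissues of sunitinib-treated mice. They are 5 of the 24934 gene symbols listed in the 4 expression tables, and each was present in every table. They were chosen by their symbols and with their levels and their sunitinib minus vehicle differences in these libraries already known. Those values are therefore given as a description without a test. The C57BL/6 mice were 24 weeks old and had been given sunitinib (Sutent), a drug that blocks several receptor tyrosine kinases, or vehicle. RNA sequencing libraries came from total RNA of their liver, brown fat and epididymal and inguinal white fat, with 2 libraries per treatment and tissue and 16 in all. The design states 8 mice, 4 per treatment, and the labels neither tie a library to a mouse nor say whether tissue was pooled. A p-value therefore covers the spread among these libraries alone, part of which may be technical. Strain and age were the same in all groups, and dose and duration are not stated in the labels.

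Metallothioneins are small cytosolic proteins rich in cysteine that bind zinc and copper and buffer their free concentration. When free zinc rises, MTF1 binds metal response elements in the promoters of Mt1, Mt2 and Slc30a1 and raises their transcription. Glucocorticoids and interleukin-6 also induce the metallothionein genes in liver. SLC30A1 exports zinc across the plasma membrane, whereas SLC39A14 carries zinc, manganese and non-transferrin iron into cells and is induced in hepatocytes during inflammation.

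The promoter windows of Mt1 and Mt2 are shown as those of metallothionein genes that MTF1 controls. Whether MTF1 has a part in any sunitinib minus vehicle difference was not tested. Slc30a1 is shown as the exporter that MTF1 also controls. RefSeq promoter windows of GRCm38.p6 were at hand for 4 of the 5 genes. The bases before the annotated start are printed 5′ to 3′ for 3 of them, all on the plus strand. Mt1 lies at chr8:94178839-94179088, Mt2 at chr8:94172368-94172617 and Slc30a1 at chr1:191906531-191906780. Capitals mark the core of the metal response element, searched as TGCACNC and TGCGCNC on both strands, with no overlapping matches here.
Mt1: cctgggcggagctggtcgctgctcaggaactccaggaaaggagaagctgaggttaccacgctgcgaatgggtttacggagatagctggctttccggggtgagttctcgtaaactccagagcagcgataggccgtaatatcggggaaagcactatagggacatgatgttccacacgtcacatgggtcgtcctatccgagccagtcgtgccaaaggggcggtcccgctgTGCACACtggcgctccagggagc
Mt2: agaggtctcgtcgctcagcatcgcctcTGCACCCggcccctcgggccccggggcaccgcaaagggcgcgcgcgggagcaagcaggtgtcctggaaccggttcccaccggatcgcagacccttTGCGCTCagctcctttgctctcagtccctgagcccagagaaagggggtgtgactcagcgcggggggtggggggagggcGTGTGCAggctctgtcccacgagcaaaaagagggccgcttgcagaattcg
Slc30a1: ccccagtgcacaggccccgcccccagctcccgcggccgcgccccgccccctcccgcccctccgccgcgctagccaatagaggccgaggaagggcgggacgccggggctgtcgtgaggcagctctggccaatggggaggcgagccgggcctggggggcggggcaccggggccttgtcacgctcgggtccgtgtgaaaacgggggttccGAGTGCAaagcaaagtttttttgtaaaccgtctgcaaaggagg

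These windows ran from 250 bases before to 50 bases after the start. With the 50 bases after the start included, the Mt2 window held 4 cores, the Mt1 window 3 and the Slc30a1 window 2. In the Mt1 window 2 of the cores, TGCACTC and TGCGCTC, lay just past the annotated start, at its bases 3 and 21. The counts depend on the annotated start on which each window was placed. Bases outside the windows were not searched, so the counts do not rank the promoters of these genes. The core of Slc30a1 before the start lay on the minus strand, 43 bases before it. No core was found in the Mtf1 window. Among 32841 promoter windows of this length 25.7% held at least 1 core, 7.12% at least 2, 1.97% at least 3 and 0.518% at least 4. A match is a description of the letters and does not show that MTF1 binds there.

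The values are regularized log2 expression, a scale made by the authors per tissue that shrinks genes with few reads towards their mean. All 5 genes lay well above the lowest mean of 3 that was set for testing. Every difference is log2 sunitinib minus vehicle ± SE within a tissue, with 2 libraries per group. The SE is that of the limma fit, which draws the variance of a gene towards a trend over all genes. It can therefore be smaller or larger than the spread of that gene's own libraries would give. Depth is unknown, and in whole tissue fewer cells of a type and less RNA per cell cannot be told apart.

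The labelled tissues carried their defining markers. Ucp1, the uncoupling protein of brown fat, averaged 16.7 in brown fat, Fabp4, a fatty acid carrier of adipocytes, 17.8 in epididymal and 17.9 in inguinal white fat, and Alb, serum albumin, 20.2 in liver. Markers of other cell types differed between some groups. In epididymal fat Crisp1, secreted by the epididymal duct, had a level of 12.7 in sunitinib replicate 1 and 5.98 in sunitinib replicate 2, against 6.21 and 6.05 with vehicle. The 6 epithelial markers there averaged 8.78 to 8.79 with sunitinib and 6.88 to 7.70 with vehicle, while the 5 macrophage markers at hand averaged 10.9 in both sunitinib libraries and 11.75 to 11.76 with vehicle. In inguinal fat 4 lymphocyte markers averaged 6.13 to 9.60 with sunitinib and 4.84 to 5.41 with vehicle, 4 neutrophil markers 5.58 to 7.58 with sunitinib and 4.88 to 5.05 with vehicle, and 5 skeletal muscle markers 9.17 to 12.5 with sunitinib and 13.1 to 14.4 with vehicle. In brown fat the muscle markers averaged 9.45 to 10.1 with sunitinib and 8.17 to 12.0 with vehicle. The 5 endothelial markers averaged 10.5 to 10.6 with sunitinib and 9.94 to 10.3 with vehicle in brown fat, but were lower with sunitinib in the other tissues. There they averaged 9.40 to 9.51 against 9.62 to 10.05 with vehicle in epididymal fat and 9.81 to 9.95 against 10.18 to 10.26 in inguinal fat. Liver had 6.93 to 6.98 with sunitinib against 7.03 to 7.27. In liver 4 neutrophil markers averaged 4.42 to 4.54 with sunitinib and 4.12 to 4.14 with vehicle. Whether these cell types have a part in the values below was not tested.

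In brown fat both metallothioneins were higher with sunitinib by about the same amount. Mt1 was at 11.36 and 11.35 in the sunitinib libraries, against 10.80 and 10.65 in the vehicle libraries, a difference of 0.62 ± 0.07 or 1.54-fold. Mt2 was at 9.77 and 9.72 with sunitinib, against 9.21 and 9.004 with vehicle, a difference of 0.64 ± 0.09 or 1.55-fold. For both genes each sunitinib library lay above each vehicle library. The gap between the 2 sunitinib libraries was 0.011 for Mt1 and 0.051 for Mt2, and that between the 2 vehicle libraries 0.149 and 0.209. Of 13044 genes tested in this tissue, 99.9% had a smaller difference than either metallothionein. Without vehicle replicate 2 the differences were smallest, at 0.55 for Mt1 and 0.53 for Mt2.

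The regulator and the transporters had smaller differences in brown fat. Mtf1 stood at 7.50 and 7.67 with sunitinib and at 7.74 and 7.52 with vehicle, a difference of −0.05 ± 0.10 with overlapping groups. The exporter Slc30a1 was at 7.82 and 7.76 with sunitinib and at 7.76 and 7.61 with vehicle (0.10 ± 0.08), where the lower sunitinib library lay just below the higher vehicle library. The importer Slc39a14 was at 8.26 and 8.22 with sunitinib, against 8.19 and 7.96 with vehicle, a difference of 0.17 ± 0.09 without overlap, which was 0.05 without vehicle replicate 2. Groups did not overlap for 3 of the 5 genes, as for 50.2% of all genes tested in brown fat. Nothing is read from that count.

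**Figure D1:**
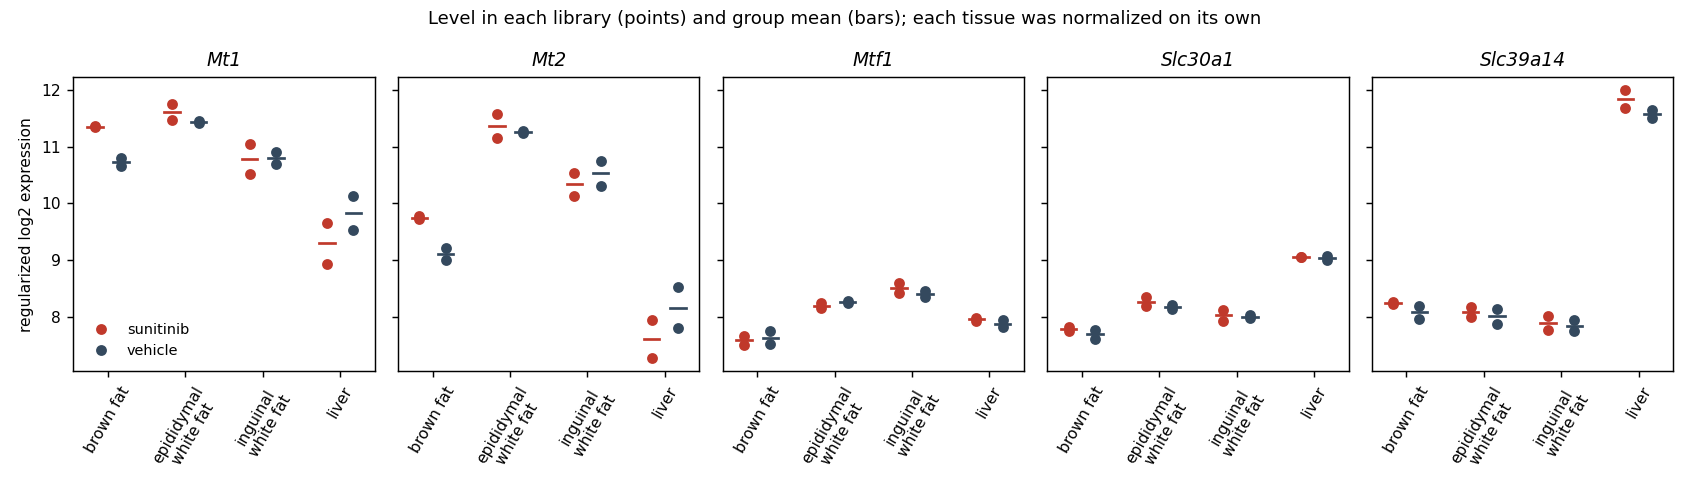
Regularized log2 expression (y axis) of the 5 genes in 4 tissues (x axis), with 1 point per library and a bar at the group mean, sunitinib left of vehicle. Both metallothioneins lie higher with sunitinib in brown fat and at lower means in liver, where the groups overlap, and Slc39a14 stands near 12 in liver and near 8 in the fat depots.

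In liver the means of both metallothioneins were lower with sunitinib, but the groups overlapped. Mt1 was at 9.66 and 8.93 with sunitinib, against 10.13 and 9.53 with vehicle, a difference of −0.53 ± 0.23. Mt2 was at 7.94 and 7.27 with sunitinib, against 8.52 and 7.80 with vehicle, a difference of −0.56 ± 0.24. These limma SEs were smaller than the pooled SD between libraries of a group, 0.471 for Mt1 and 0.492 for Mt2. For each gene the higher sunitinib library lay above the lower vehicle library. The gap within a group was 0.726 for Mt1 and 0.665 for Mt2 between the sunitinib libraries, and 0.601 and 0.725 between the vehicle libraries, so it was larger than the difference between the groups. Without sunitinib replicate 4 the difference was −0.17 for Mt1 and −0.23 for Mt2, and without vehicle replicate 1 it was −0.23 and −0.20. Of 12394 genes tested in liver, 0.25% had a lower difference than Mt1 and 0.186% than Mt2.

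Slc39a14 had the opposite direction in liver. It was at 11.99 and 11.67 with sunitinib, against 11.64 and 11.51 with vehicle, a difference of 0.26 ± 0.11 or 1.20-fold, and the groups were separated by less than the gap between the sunitinib libraries. Without sunitinib replicate 3 the difference was 0.10. Mtf1, at 7.93 and 7.98 with sunitinib and 7.82 and 7.94 with vehicle, differed by 0.08 ± 0.08. Slc30a1 was the steadiest of the 5 in liver, with 9.05 and 9.06 under sunitinib, 9.07 and 9.0 under vehicle and a difference of 0.02 ± 0.07. The groups of 1 of the 5 genes did not overlap, as for 37.4% of all genes tested in liver.

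In epididymal white fat the differences of the metallothioneins rested on 1 library. Mt1 was at 11.75 and 11.46 with sunitinib, against 11.45 and 11.42 with vehicle, a difference of 0.17 ± 0.11. Mt2 was at 11.57 and 11.15 with sunitinib, against 11.28 and 11.23 with vehicle, a difference of 0.10 ± 0.15. The higher value of each gene came from sunitinib replicate 1, the library with the high Crisp1 level, and the other sunitinib library lay just above the vehicle libraries for Mt1 and below both for Mt2. Without sunitinib replicate 1 the differences were 0.03 for Mt1 and −0.11 for Mt2.

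The other 3 genes of epididymal fat differed by less than 0.1. Mtf1 was at 8.15 and 8.24 with sunitinib, against 8.28 and 8.25 with vehicle (−0.07 ± 0.07). Slc30a1 was at 8.19 and 8.34 with sunitinib, against 8.14 and 8.21 with vehicle (0.09 ± 0.08). Slc39a14 was at 7.99 and 8.17 with sunitinib, against 7.87 and 8.14 with vehicle (0.08 ± 0.12). Without overlap were 2 of the 5 genes, Mt1 and Mtf1, as were 53.7% of all genes tested in this depot.

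In inguinal white fat the groups overlapped for every one of the 5 genes, while 50.4% of all genes tested there did not overlap. Mt1 was at 11.05 and 10.52 with sunitinib, against 10.91 and 10.69 with vehicle, a difference of −0.01 ± 0.22. Mt2 was at 10.54 and 10.14 with sunitinib, against 10.74 and 10.31 with vehicle, a difference of −0.19 ± 0.22. The sunitinib libraries lay farther apart for Mt1 than the vehicle libraries did. Leaving out sunitinib replicate 1 gave an Mt1 difference of −0.28, and leaving out sunitinib replicate 2 one of 0.26. Mtf1 was at 8.41 and 8.59 with sunitinib, against 8.45 and 8.36 with vehicle (0.09 ± 0.12). Slc30a1 was at 8.11 and 7.93 with sunitinib, against 7.98 and 8.02 with vehicle (0.02 ± 0.13). Slc39a14 was at 8.01 and 7.77 with sunitinib, against 7.94 and 7.74 with vehicle (0.05 ± 0.16).

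The vehicle libraries gave the baseline of each gene. Tables were normalized separately, so levels set across tissues are approximate, and they were not tested. Mt1 ranged from 11.42 to 11.45 in epididymal fat, 10.69 to 10.91 in inguinal fat, 10.65 to 10.80 in brown fat and 9.53 to 10.13 in liver. Inguinal and brown fat overlapped in that order. Counted from the median of the genes tested in each table, brown fat at 3.28 to 3.42 stood above inguinal fat at 2.67 to 2.88, with epididymal fat still highest at 3.53 to 3.55. The order for Mt2 was epididymal, inguinal and brown fat and then liver, without overlap of neighbours on either scale, at 11.23 to 11.28, 10.31 to 10.74, 9.004 to 9.21 and 7.80 to 8.52 in the vehicle libraries.

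The transporters had their highest level in liver. Slc39a14 was at 11.51 to 11.64 in vehicle livers, against 7.96 to 8.19 in brown fat, 7.87 to 8.14 in epididymal fat and 7.74 to 7.94 in inguinal fat, where neighbouring depots overlapped. Relative to the median of the genes tested in each table, the depots did not overlap. Slc39a14 then stood at 0.58 to 0.81 in brown fat, −0.03 to 0.25 in epididymal fat and −0.28 to −0.08 in inguinal fat. Slc30a1 was at 9.0 to 9.07 in vehicle livers and at 7.61 to 8.21 over the vehicle libraries of the 3 fat depots. Mtf1 ranged from 7.52 in brown fat to 8.45 in inguinal fat over all vehicle libraries. Counted from the median of the genes tested in each table, it ran from 0.14 in brown fat to 0.46 in liver.

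A shift shared by all genes of a library cancels in Mt2 minus Mt1. Shrinkage, which acts gene by gene, need not cancel, so setting this value across tissues stays approximate. In brown fat Mt2 minus Mt1 was −1.59 and −1.63 with sunitinib, against −1.59 and −1.65 with vehicle. In liver it was −1.73 and −1.66 with sunitinib, against −1.60 and −1.73 with vehicle. In epididymal fat it was −0.18 and −0.31 with sunitinib, against −0.17 and −0.19 with vehicle, and in inguinal fat −0.52 and −0.38 with sunitinib, against −0.16 and −0.38 with vehicle. The 8 white fat libraries thus all lay above the 8 libraries of brown fat and liver, with a gap of over 1 on the log2 scale. The ratio is not scaled for transcript length, so only its difference between tissues can be read. The longest exact stretch shared by any protein-coding transcript of Mt1 and any of Mt2 was 20 bases in the GENCODE M21 transcripts. A longer read cannot match such transcripts of both genes exactly, and matches with mismatches were not searched. Read length and the handling of reads with several matches are not given in the labels. Whether any reads were shared between the 2 genes was not tested, so the split between them stays approximate.

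**Figure D2:**
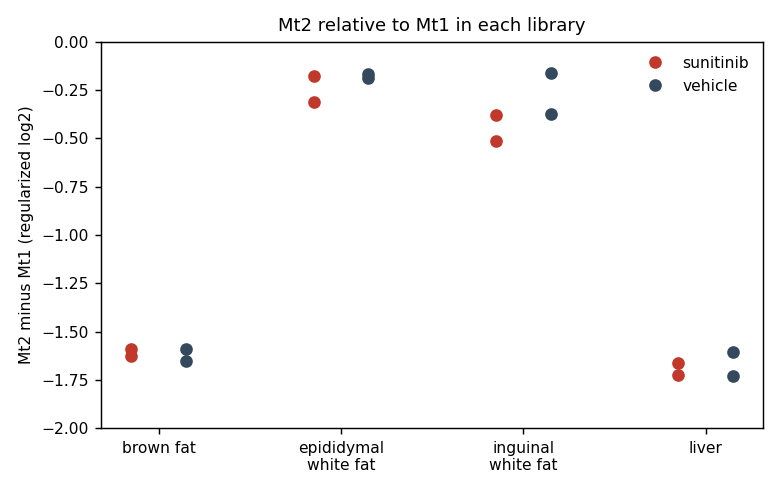
Mt2 minus Mt1 in regularized log2 units (y axis) for each library of 4 tissues (x axis), sunitinib left of vehicle. Both white fat depots lie between −0.52 and −0.16 and brown fat and liver between −1.73 and −1.59, with both treatments together in each tissue.

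Mt1 and Mt2 also varied together between libraries of the same group, which is not part of the sunitinib minus vehicle difference. In 8 of 8 groups of 2 libraries the same library had the higher Mt1 and the higher Mt2. Over the 16 libraries, deviations from the group mean had a Pearson r of 0.966 and a Spearman rho of 0.965 between the 2 genes, and an r of 0.923 over the 12 fat libraries. Each group of 2 gives 1 independent difference, and both genes were read from the same library, so this is a description. Slc39a14 had an r of 0.654 with Mt1 and the same higher library in 6 of 8 groups, Slc30a1 an r of 0.291 and 4 of 8 groups, and Mtf1 an r of −0.408 and 3 of 8 groups. For Slc39a14 the exceptions were both groups of epididymal fat.

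In all 8 groups the library with the higher Mt1 was the one with the lower replicate number in its title. Of 11113 genes tested in all 4 tables, 38 had this pattern, which is 0.342%, and 42 had its reverse in all 8 groups. Replicate numbers carry no order within a group, and whether equal numbers mark the same mouse across tissues is not stated.

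Outside these 5 genes, and with predicted and clone names left out, 5 genes had deviations most like the mean of Mt1 and Mt2 over the 16 libraries. They were Scaf1, Sap30l, Txnip, Cyhr1 and Tom1. Scaf1, a factor that binds RNA polymerase II, had an r of 0.966 and Sap30l, a subunit of a histone deacetylase complex, an r of 0.950. Txnip, the thioredoxin-interacting protein, had an r of 0.937, Cyhr1 of 0.928 and Tom1, an endosomal sorting protein, of 0.924. Over the 12 fat libraries these values lay between 0.829 and 0.920. In the order above, the library with the higher Mt1 and Mt2 was also the higher one in 7, 7, 8, 5 and 7 of 8 groups. The 5 were picked by r from those of the 11113 genes tested in all 4 tables that were left, so high values are part of the choice. In brown fat their sunitinib minus vehicle differences were 0.10, 0.17, −0.05, 0.08 and 0.20 in the same order, against 0.62 for Mt1.

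**Figure D3:**
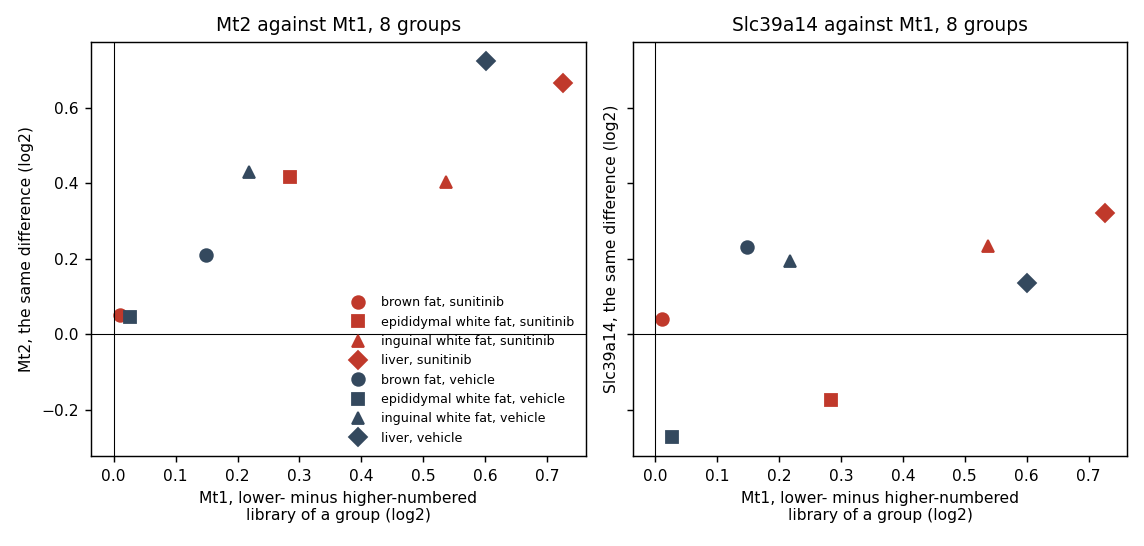
Difference between the 2 libraries of each group (lower-numbered minus higher-numbered, log2) for Mt2 and Slc39a14 (y axes) against Mt1 (x axis), with 1 point for each of 8 groups. All 8 points are positive for Mt1 and Mt2, and the 2 epididymal fat points are negative for Slc39a14.

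The other 22 zinc transporter genes and the other metallothioneins Mt3 and Mt4 were set through the limma test of all genes, although this list too was drawn up with earlier results of these data known. SLC30 proteins move zinc out of the cytosol and SLC39 proteins move it in. With limma, 0 of 16 such genes tested in brown fat passed an adjusted p of 0.05 and 0 had an unadjusted p under 0.05, beside 0% and 16.1% of all genes. In epididymal fat 0 of 19 passed and 2 had an unadjusted p under 0.05, beside 2.34% and 20.1% of all genes. In inguinal fat 0 of 17 passed and 0 had an unadjusted p under 0.05, beside 0% and 12.7%. In liver 0 of 19 passed and 3 had an unadjusted p under 0.05, beside 0.194% and 8.64%. The median difference of these genes was 0.02 in brown fat, 0.01 in epididymal fat, −0.04 in inguinal fat and 0.07 in liver, beside −0.005, 0.009, 0.010 and 0.003 for all genes tested.

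Slc30a10, a manganese exporter, had the largest difference of the zinc transporter genes in liver. It was at 8.70 and 8.69 with sunitinib, against 8.38 and 8.14 with vehicle, a difference of 0.44 ± 0.09 that did not pass in limma (adjusted p = 0.134). Both sunitinib libraries lay above both vehicle libraries. Leaving out a library leaves 1 in its group, which the fit assumes to vary like the other group, whose pair alone then gives the spread. In such fits Slc30a10 passed without vehicle replicate 1, sunitinib replicate 3 or sunitinib replicate 4 (limma adjusted p = 0.00536, 0.0207 and 0.00419), but it did not pass without vehicle replicate 2 or in any other alternative run. All 7 SLC30 genes tested in liver had positive differences, from 0.02 to 0.44 with a median of 0.09, and 0 passed in limma. Of all 12394 genes tested in liver 6376 were positive, and nothing is read from the count of signs. Slc30a5, which loads zinc into the secretory pathway, was at 0.14 ± 0.07 (limma adjusted p = 0.655). Slc39a4, a zinc importer best known from the intestine, stood at 0.24 ± 0.09 in liver (adjusted p = 0.453).

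In epididymal fat the widest differences came with a wide spread. Slc30a2, a vesicular zinc transporter, was at 6.98 and 8.20 with sunitinib, against 6.24 and 7.09 with vehicle, a difference of 0.93 ± 0.48 (limma adjusted p = 0.350). Slc30a3, which fills synaptic vesicles with zinc in neurons, was at 6.39 and 7.09 with sunitinib, against 5.81 and 6.40 with vehicle (0.63 ± 0.30, limma adjusted p = 0.315). For both genes the groups overlapped and the second-numbered library of each group was the higher. With the replicate number as a block, Slc30a2 and Slc30a3 passed with limma adjusted p = 0.0287 and 0.0276. Slc39a8, an importer of zinc and manganese, was at 6.82 in sunitinib replicate 1 and 5.93 in sunitinib replicate 2, against 5.76 and 5.89 with vehicle (0.55 ± 0.29, limma adjusted p = 0.359). The first of these is the library with the high Crisp1 level, and Slc39a8 passed when that library was the lone sunitinib library, with the spread taken from the vehicle pair (limma adjusted p = 0.0058). Mt3, a metallothionein best known from neurons, was at 6.13 and 6.99 with sunitinib, against 5.85 and 6.40 with vehicle in that depot (0.44 ± 0.33, limma adjusted p = 0.502).

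In brown fat the largest differences of the same families were Slc39a1 at 0.16 ± 0.08 and Slc39a3 at 0.14 ± 0.06, both importers of the plasma membrane, and Slc30a9 at −0.11 ± 0.06, with limma adjusted p-values of 0.376, 0.337 and 0.420. In inguinal fat Slc39a4 was at 0.52 ± 0.38, Slc30a2 at −0.28 ± 0.21 and the importer Slc39a10 at −0.26 ± 0.12, with limma adjusted p-values of 0.561, 0.579 and 0.443. Slc39a4 was at 2.86 and 3.93 with sunitinib and at 2.86 and 2.88 with vehicle. It reached the lowest mean of 3 set for testing only through its higher sunitinib library. With that library as the lone sunitinib library its difference was 1.06, and nothing is read from that fit. Mt3 had means under 3 in brown and inguinal fat and was not tested there.

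**Figure D4:**
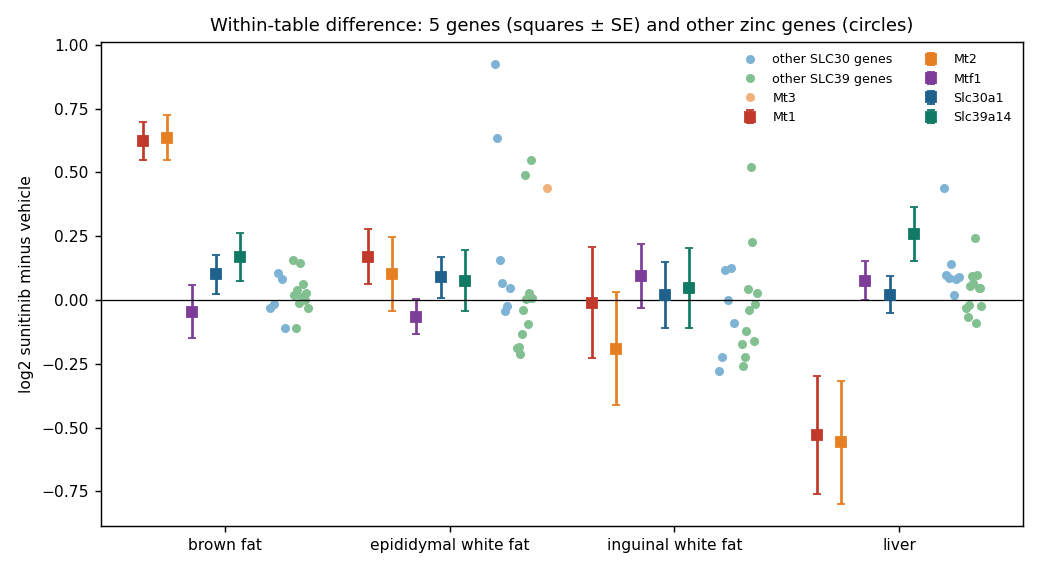
Log2 sunitinib minus vehicle (y axis) in 4 tissues (x axis). Squares are Mt1, Mt2, Mtf1, Slc30a1 and Slc39a14 (bars ± SE of the limma fit, 2 libraries per group). Circles are the other zinc transporter genes and Mt3. Mt1 and Mt2 stand at 0.62 and 0.64 in brown fat and at −0.53 and −0.56 in liver. The other SLC30 genes tested in liver lie between 0.02 and 0.44.

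Genes of the settings in which metallothioneins are known to be induced were set beside them from 6 lists, on MTF1-linked genes, copper, iron, glucocorticoids, interleukin-6 with the acute phase, and oxidative stress. Of 60, 66, 63 and 66 list genes tested in brown, epididymal and inguinal fat and liver, 1 passed in limma, beside the same 0%, 2.34%, 0% and 0.194% of all genes. It was Hamp, the iron hormone hepcidin, in liver, at 12.94 and 12.69 with sunitinib, against 11.69 and 11.68 with vehicle (1.13 ± 0.09, adjusted p = 0.00198). In the 3 fat depots 0 passed with limma, while 13, 21 and 12 had an unadjusted p under 0.05, as did 15 in liver, beside 16.1%, 20.1%, 12.7% and 8.64% of all genes.

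Fits with a lone library in 1 group, where the pair of the other group alone gives the spread, moved these counts, except without either sunitinib library in brown fat and without either vehicle library in the white depots, where 0 list genes passed. In brown fat 18 list genes passed without vehicle replicate 1 and 5 without vehicle replicate 2, beside 9.90% and 5.03% of all genes. Hfe2, the hemojuvelin coreceptor of iron sensing that muscle also expresses, passed in both with opposite signs, −1.37 and 0.58, and was named after its values were seen. Without sunitinib replicate 1 or 2, 10 and 5 list genes passed in epididymal fat, beside 6.32% and 7.22% of all genes, and 19 and 6 in inguinal fat, beside 27.5% and 4.91%. In liver 5 passed without vehicle replicate 1, 3 without vehicle replicate 2, 5 without sunitinib replicate 3 and 13 without sunitinib replicate 4, beside 1.35%, 0.403%, 0.888% and 3.66%.

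In brown fat, where Mt1 and Mt2 were higher, 7 of 9 copper genes had positive differences with a median of 0.20, beside −0.005 for all genes tested. Atox1, the copper chaperone, was at 10.65 and 10.76 with sunitinib, against 10.42 and 10.41 with vehicle (0.29 ± 0.07, limma adjusted p = 0.228). Sod1, the cytosolic superoxide dismutase that holds copper and zinc, was at 0.27 ± 0.07 with the same adjusted p of 0.228 in limma. Of 14 glucocorticoid response genes 7 were positive with a median of 0.02. The cell cycle inhibitor Cdkn1a was at 0.59 ± 0.12 and Errfi1, an inhibitor of the epidermal growth factor receptor, at 0.37 ± 0.08 (limma adjusted p = 0.228 for each). Of 14 interleukin-6 and acute phase genes only 2 were positive, with a median of −0.14. The 5 MTF1-linked genes had a median of 0.09, with the stress-induced Ndrg1 at 0.23 ± 0.07 and the LIM protein Csrp1 at 0.30 ± 0.10 (limma adjusted p = 0.253 and 0.260), and the 8 oxidative stress genes one of −0.06.

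In liver, where Slc39a14 stood higher and the metallothioneins lower, the acute phase genes went several ways. The fibrinogen chains Fga and Fgg were at 0.36 ± 0.07 and 0.31 ± 0.07 (limma adjusted p = 0.132 and 0.192), while 7 of 17 genes of the list were positive with a median of −0.06. Saa1, serum amyloid A, was at 9.54 and 9.12 with sunitinib, against 9.35 and 11.00 with vehicle, so that vehicle replicate 2 stood apart, as it did for Saa2. Saa1 and Saa2 were named after their values were seen. That library had the lower Mt1 of the vehicle pair, 9.53. Of 14 glucocorticoid genes 6 were positive with a median of −0.01, with Errfi1 at 0.33 ± 0.09 and Pdk4, a kinase that restrains glucose oxidation, at −0.52 ± 0.15 (limma adjusted p = 0.272 and 0.308). The copper list had 1 of 10 genes positive and a median of −0.06, and the 4 MTF1-linked genes a median of 0.01.

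Other list genes led in the white depots. In epididymal fat the iron storage protein Ftl1 was at −0.39 ± 0.06, the glucocorticoid-list genes Cdkn1a and Errfi1 at −0.59 ± 0.11 and 0.43 ± 0.08, and ceruloplasmin (Cp), the copper oxidase of plasma, at 0.55 ± 0.10, with limma adjusted p-values of 0.0539, 0.0672, 0.0656 and 0.0759. Heme oxygenase (Hmox1), which cadmium induces along with the metallothioneins, was at −0.67 ± 0.14 (adjusted p = 0.0881 in limma). In inguinal fat the metalloreductase Steap3 was at −0.66 ± 0.09, the transferrin receptor Tfrc at −0.90 ± 0.14 and Cp at 0.85 ± 0.23 (limma adjusted p = 0.304, 0.308 and 0.341).

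Whether the sunitinib effect of a list gene differed between tissues was tested for 6 pairs of tissues with an interaction contrast in limma. Here the list genes include the other zinc transporters. Between brown and epididymal fat 4 of 75 list genes passed, beside 3.64% of all genes tested, and between epididymal fat and liver 3 of 81, beside 3.95%. In the other 4 pairs 0 passed in limma, beside 0.0314% of all genes for brown against inguinal fat, 0% for brown fat against liver, 0% for epididymal against inguinal fat and 0.043% for inguinal fat against liver. In the same order 17 of 74, 19 of 75, 10 of 79 and 12 of 77 list genes had an unadjusted p under 0.05, beside 13.6%, 14.4%, 10.1% and 13.7% of all genes. Between brown and epididymal fat and between epididymal fat and liver 18 of 75 and 13 of 81 list genes did, beside 22.0% and 18.8%. No zinc transporter was among the genes that passed, and the 5 genes described here were not tested in this way because the choice of them used this contrast.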

How the data were processed

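RNA sequencing of 16 libraries gave 1 table of regularized log2 expression per tissue, made and deposited by the authors. The mouse build mm9 is named in the submitters' processing notes, as are DESeq2, bedtools, TopHat2 2.1.1 and bcl2fastq 2.17.1.14, without their roles. How reads were counted, with which annotation and strand setting, is not given in these sources. Depth per library is unknown, and no interval that needs it is given.

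Groups and replicate numbers came from the sample titles. The titles make the sunitinib livers replicates 3 and 4, whereas the column headers give them the same numbers as the vehicle livers. The titles were followed. Within each tissue, genes whose 4 libraries averaged 3 or more were fitted with limma 3.58.1 in R 4.3.3 (intensity trend, Benjamini-Hochberg over all genes tested, adjusted p below 0.05, two-sided), without covariates. The fit was tested on simulated data. Shrinkage of the scale lowers the differences and the spread of genes with few reads.

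The 5 genes and the gene lists were chosen with earlier results of these data known. Of the zinc lists, genes past the test and the 3 with the largest difference per tissue are named. Of each related list, genes past the test or up to 2 with the smallest p can be named, and not all are. The 5 genes most like Mt1 and Mt2 were taken by Pearson r of deviations from group means, leaving out predicted and clone names. Promoter windows are from RefSeq with the build GRCm38.p6, and no coordinate was used with the mm9 tables. Alternatives were other filters, scalings, variance settings, 1 fit over the 4 tissues, a replicate block and leaving out each library.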

Additional observations from a re-analysis of the deposited data

Results flagged for a closer look

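Among genes of the zinc and related lists together, 7 tests found that the sunitinib effect differed between tissues, all for genes of the related lists. Each had a limma adjusted p below 0.05 over all genes of the pair. They are 4 of 75 list genes between brown and epididymal fat, where 3.64% of all genes passed, and 3 of 81 between epididymal fat and liver, where 3.95% passed, so the shares are near those of all genes. Brown minus epididymal fat gave −0.76 for Cp (−0.21 in brown and 0.55 in epididymal fat, adjusted p = 0.0399), 0.46 for Ftl1 (0.07 and −0.39, adjusted p = 0.0405), 1.18 for Cdkn1a (0.59 and −0.59, adjusted p = 0.0149) and −0.78 for Cebpd, an inflammation-induced transcription factor (−0.19 and 0.58, adjusted p = 0.0444). Epididymal fat minus liver gave −0.45 for Ftl1 (−0.39 and 0.05, adjusted p = 0.0272), −0.72 for Cdkn1a (−0.59 and 0.13, adjusted p = 0.0194) and 0.68 for Cebpd (0.58 and −0.10, adjusted p = 0.0402). All 7 kept their direction without any single library and with 2 other scalings, which were chosen after seeing the data, but each lost its call in at least 1 of these 10 settings, with limma adjusted p up to 0.160. Between brown and epididymal fat Cdkn1a lost it without brown fat sunitinib replicate 1 alone (1.05, adjusted p = 0.0707), Cp in 6 settings, Ftl1 in 7 and Cebpd in 6. Between epididymal fat and liver Ftl1 lost it in 7, Cebpd in 6 and Cdkn1a in 4, each time by leaving out a library, which leaves a lone library in its group.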

How the results depend on the processing

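The differences of the 5 genes moved by less than the SD between libraries under median centring, quantile normalization and each left-out library. With 2 libraries per group the last of these cannot move them by more, so it shows no stability. Without 1 library at a time the Mt1 difference ran from 0.55 to 0.70 in brown fat, 0.03 to 0.31 in epididymal fat, −0.28 to 0.26 in inguinal fat and −0.89 to −0.17 in liver, and that of Mt2 from 0.53 to 0.74, −0.11 to 0.31, −0.41 to 0.02 and −0.92 to −0.20. The count of zinc genes that passed in limma was 0 in each tissue. Where a library is left out, its group holds 1, assumed to vary like the others. Left-out libraries gave 0 in brown fat and 0 to 1 in epididymal fat, inguinal fat and liver. It was 1 in inguinal fat with 1 fit over the 4 tissues. The counts of the related lists were 0, 0, 0 and 1, and left-out libraries gave 0 to 18, 0 to 10, 0 to 19 and 3 to 13. In epididymal fat that count was 2 with a mean of at least 5, 4 with robust variance and 3 with 1 fit over the 4 tissues. In inguinal fat it was 14 in that fit, and in liver 0, because Hamp was not tested in every table, as that fit requires. Hamp passed in each alternative that tested it with all 4 liver libraries. Its limma adjusted p ran from 0.00165 with robust variance to 0.0440 with no trend in the variance. Left-out libraries gave Hamp differences of 1.003 to 1.254. Replicate numbers do not pair mice of different treatment. Within-group differences of equal numbers had correlations of −0.256, 0.224 and 0.108 over genes in brown, epididymal and inguinal fat. With the replicate block 2 zinc genes and 3 related genes passed in epididymal fat, where 678 of all genes passed instead of 363, and 0 of either in brown and inguinal fat. No such block was fitted in liver, where the groups share no number by their titles, although they do by the column headers.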
